A study of Mus musculus with 18 samples.

Results

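The let-7 3p arms are the strands opposite the let-7 guides. Each let-7 hairpin is cut by Drosha and Dicer into a 5p and a 3p strand, and the 5p strand is the guide that Argonaute proteins keep to repress target mRNAs, while most of the 3p strand, the passenger, is discarded. The let-7 family restrains growth-promoting and oncofetal genes in differentiated tissue, IGF2BP1 and MYCN being among its known targets, and LIN28 proteins bind the loop of let-7 precursors and block their maturation. Several hairpins give the same guide, so the guide cannot tell which hairpin was used, whereas the 3p arms mostly differ in sequence from hairpin to hairpin. The 10 members were taken by name from the 1966 mature miRNAs measured: mmu-let-7a-1-3p, mmu-let-7b-3p, mmu-let-7c-1-3p, mmu-let-7c-2-3p, mmu-let-7d-3p, mmu-let-7e-3p, mmu-let-7f-1-3p, mmu-let-7f-2-3p, mmu-let-7g-3p and mmu-let-7i-3p. They are set beside the 8 guides of the same hairpins.

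Small RNAs were sequenced from a mouse model of neuroblastoma, a tumor of the sympathetic nervous system. AG are 3 adrenal glands of wildtype mice (genotype label CRE -). TI are 7 tumors of mice with a Cre-dependent IGF2BP1 transgene at the Rosa26 locus (6 labelled IGF2BP1 +/+ and 1 IGF2BP1 +/-, all CRE +), and TIM are 8 tumors of mice that carry an IGF2BP1 and a MYCN transgene at Rosa26 (labelled IMP1/MYCN, CRE +, where IMP1 is another name of IGF2BP1). The study's genotyping found no wildtype Rosa26 locus in the TIM mice, so the transgenes occupy 1 allele each and TIM differ from the IGF2BP1 +/+ tumors of TI in the dose of IGF2BP1 as well as in MYCN, which cannot be told apart. Cre was driven by Dbh regulatory sequence, so the transgenes are switched on in adrenal glands and peripheral nerves, on a C57Bl6/N background. The IGF2BP1 transgene lacks its 3'UTR and with it the let-7 sites found there. Ages are not given in the labels. The paper reports a shorter median survival for mice with both transgenes than for mice homozygous for IGF2BP1. TIM and TI may therefore also differ in age, which cannot be told apart from the genotype. Single tumors are labelled as tumor adrenal gland (1 in TI, 2 in TIM) or tumor spine (1 in TIM). Mice of the TIM genotype could bear more than 1 tumor, and the labels do not say which tumors came from 1 mouse. The deposited columns give the group and not the tumor, so libraries are numbered here in column order and these tumors could not be picked out. Wildtype adrenal gland is a mixed tissue and not the cell of origin of the tumors, and fewer cells of a type cannot be told apart from less of a miRNA per cell.

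Libraries held 11641696 to 23435621 reads on miRNAs, and 3 reads corresponded to 0.101 to 0.272 CPM. The 10 members together took 0.0616% to 0.0755% of the reads in AG, 0.0182% to 0.0301% in TI and 0.0221% to 0.0453% in TIM, with at least 10 reads for every member in every library. A single miRNA, miR-148a-3p, took 4.19% to 6.94% of the reads in AG, 2.29% to 61.9% in TI and 6.53% to 44.2% in TIM. Library TI 5 stood apart from the other TI libraries with the lowest share of miR-148a-3p (2.29%) and 213 CPM of miR-467a-5p, against at most 11.03 CPM in the others, and values without it are given where they matter. Marker miRNAs moved with the groups. The summed level of 4 neural miRNAs was 1011 to 1310 CPM in AG, 5059 to 14295 CPM in TI and 6922 to 21894 CPM in TIM. The 2 endothelial miRNAs summed to 38529 to 46092 CPM in AG and to 1704 to 8943 CPM over the tumors, the 4 stromal ones to 2587 to 3896 CPM against 286 to 1943 CPM, and the 3 kidney ones to 2818 to 4476 CPM against 269 to 1170 CPM. The 5 leukocyte miRNAs (427 to 620 CPM in AG, 53.5 to 348 CPM over the tumors) and the liver miRNA miR-122-5p (780 to 2592 CPM against 4.25 to 82.4 CPM) were also lower in every tumor, while the summed levels of neuroendocrine, erythroid, smooth muscle and skeletal muscle miRNAs overlapped between AG and tumors. No listed marker was at 0 in a whole group. Their part in the differences below was not tested.

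The mature sequences of the 10 members, from RefSeq on GRCm38.p6 (the assembly of mm10, to which the reads were aligned), show which hairpins can be told apart. The capitals mark the seed, bases 2 to 8 from the 5′ end, which pairs with targets.
mmu-let-7a-1-3p: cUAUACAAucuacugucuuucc
mmu-let-7c-2-3p: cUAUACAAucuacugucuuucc
mmu-let-7f-2-3p: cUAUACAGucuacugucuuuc
mmu-let-7f-1-3p: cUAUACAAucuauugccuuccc
mmu-let-7b-3p: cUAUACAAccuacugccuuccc
mmu-let-7d-3p: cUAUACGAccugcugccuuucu
mmu-let-7e-3p: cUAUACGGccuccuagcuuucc
mmu-let-7c-1-3p: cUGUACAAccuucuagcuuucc
mmu-let-7i-3p: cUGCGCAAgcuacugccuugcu
mmu-let-7g-3p: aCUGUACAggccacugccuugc

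Of the 45 pairs of members, 1 was identical, let-7a-1-3p and let-7c-2-3p. The arm let-7f-2-3p differed from these by 1 base, and over all pairs the median was 6 differing bases (highest 18). The seed UAUACAA was shared by 4 members (let-7a-1-3p, let-7b-3p, let-7c-2-3p and let-7f-1-3p) and, outside the members, by miR-98-3p, whereas each of the other 6 had a seed held by no other mature name in the table. The members thus have 7 different seeds. All 8 guides, in contrast, have the seed GAGGUAG. Guides made from more than one of the hairpins are shown for comparison, again with the seed in capitals.
mmu-let-7a-5p: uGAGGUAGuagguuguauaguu
mmu-let-7c-5p: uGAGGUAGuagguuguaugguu
mmu-let-7f-5p: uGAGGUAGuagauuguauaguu

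Each member lies in its own miRNA gene. The arms of let-7a-1 (chr13:48538188-48538209), let-7f-1 (chr13:48537833-48537854) and let-7d (chr13:48536024-48536045) are on the minus strand of chromosome 13, with 261 bases between the hairpins of let-7a-1 and let-7f-1 and 1714 bases between those of let-7f-1 and let-7d. A second pair, let-7c-2 (chr15:85706664-85706685) and let-7b (chr15:85707379-85707400), is on the plus strand of chromosome 15 with 621 bases between the hairpins. Those of let-7c-1 (chr16:77599717-77599738), let-7e (chr17:17830411-17830432), let-7f-2 (chrX:151912403-151912423) and let-7g (chr9:106178902-106178923) are on plus strands, and that of let-7i (chr10:122985642-122985663) is on the minus strand. The 3p arms are 21 or 22 bases long, so their levels in CPM can be compared with each other without a correction for length.

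Between the arms, the let-7 hairpins have a loop of 23 to 34 bases. The letters GGAG, the core of the motif that the zinc fingers of LIN28 recognise, were found in the loop of 9 of 11 let-7 hairpins (the 10 members and let-7a-2), 3 or 4 bases before the 3p arm, and not in those of let-7b and let-7c-2. The same letters were in 8.22% of all 645 mouse hairpins with both arms listed and in 26.4% of the 53 whose loop is as long as those of let-7. Both sets include the 11 let-7 hairpins, which gave 9 of the 14 matches among the 53, and no share was counted without them. UGAU was in the loops of let-7b, let-7f-1 and let-7g, in 6.05% of all hairpins and in 11.3% of those with a loop as long. The let-7 hairpins gave 3 of the 6 matches in this last set. The search was made on the transcribed strand, where the motif acts as RNA. A match describes the letters and not binding.

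The identical arms were counted evenly. In each library, let-7a-1-3p took between 48.9% and 51.4% of the reads of let-7a-1-3p and let-7c-2-3p together (median 49.9%), and the exact 95% binomial interval of this share, which covers counting error only, held 50% in 18 of 18 libraries. The reads behind this share numbered 385 to 7903. How reads with several matches were treated is not stated, and these data give 1 measurement for the pair. Values of either arm below are values of that shared pool, which cannot be assigned to let-7a-1 or let-7c-2.

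**Figure D1:**
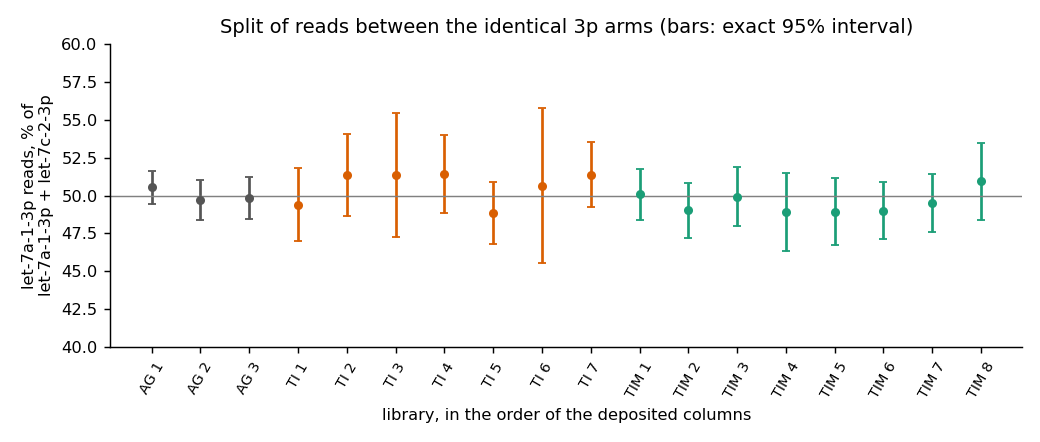
Reads of let-7a-1-3p as a percentage of the reads of let-7a-1-3p and let-7c-2-3p in each of the 18 libraries (grey AG, orange TI, green TIM), with exact 95% binomial intervals and a line at 50%. The y axis runs from 40% to 60%, and every interval holds 50%.

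The members differed in level by a factor that was large beside the spread between libraries. In AG the order by deposited name was let-7d-3p (275 ± 27.2 CPM, SD, n = 3), then let-7a-1-3p (143.4 ± 35.9 CPM) and let-7c-2-3p (142.8 ± 33.0 CPM). Next were let-7b-3p (41.2 ± 7.37 CPM), let-7f-2-3p (32.9 ± 2.76 CPM) and let-7e-3p (28.5 ± 0.801 CPM). Below them came let-7f-1-3p (17.0 ± 2.41 CPM), let-7i-3p (12.2 ± 2.15 CPM), let-7c-1-3p (4.74 ± 0.704 CPM) and let-7g-3p (2.04 ± 0.0545 CPM). Neighbours in this order had separate ranges over the AG libraries, except let-7a-1-3p with let-7c-2-3p, and let-7b-3p with let-7f-2-3p. In TI the order by name was kept at its top (let-7d-3p, let-7a-1-3p, let-7c-2-3p, let-7b-3p, let-7f-2-3p). Below these, let-7i-3p (10.3 ± 2.21 CPM, n = 7) stood above let-7e-3p (7.65 ± 2.98 CPM) and let-7f-1-3p (5.63 ± 2.298 CPM), with overlapping ranges. In TIM let-7i-3p (7.57 ± 1.17 CPM, n = 8) and let-7e-3p (7.64 ± 3.93 CPM) were close, and let-7f-1-3p (3.86 ± 1.67 CPM) lay below let-7c-1-3p (4.71 ± 2.57 CPM), again with overlapping ranges. By deposited name, let-7d-3p was thus the highest in every group. Read as 1 sequence, the sum of let-7a-1-3p and let-7c-2-3p had a higher mean than let-7d-3p in AG (286 against 275 CPM) and in TIM (112 against 96.5 CPM). In TI its mean was lower (93.5 against 130 CPM), and the ranges overlapped in every group.

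**Figure D2:**
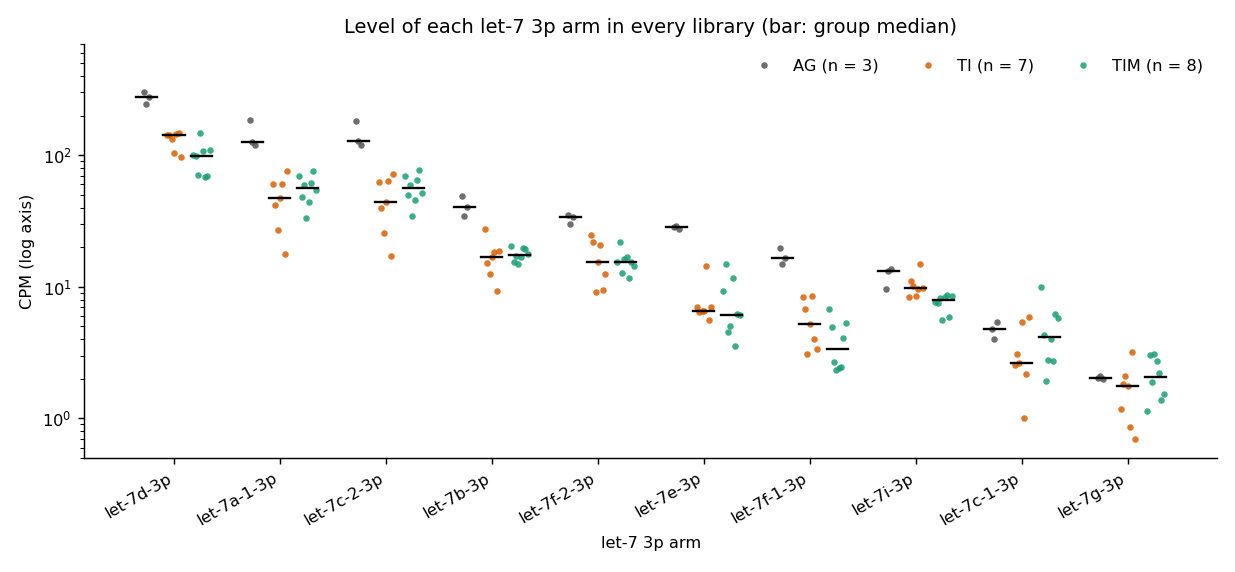
Level of each 3p arm in CPM (log axis) in every library, grey for AG (n = 3), orange for TI (n = 7) and green for TIM (n = 8), with a bar at the group median, ordered by the AG mean. All tumor libraries of let-7d-3p, let-7a-1-3p, let-7c-2-3p, let-7b-3p, let-7f-2-3p, let-7e-3p and let-7f-1-3p lie below the AG libraries, whereas the groups of let-7c-1-3p and let-7g-3p overlap.

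The first question was whether the passenger strands were lower in tumors than in wildtype adrenal glands, hairpin by hairpin. All 10 members had enough reads to be tested among 726 miRNAs. In TI, 7 of 10 fell (limma on log2(CPM + 1), adjusted p under 0.05) and 0 rose, where 29.3% of all 726 miRNAs were called lower. In TIM, 7 of 10 fell and 0 rose, where 25.9% of all were called lower. They were in both cases let-7a-1-3p, let-7b-3p, let-7c-2-3p, let-7d-3p, let-7e-3p, let-7f-1-3p and let-7f-2-3p. Since let-7a-1-3p and let-7c-2-3p are 1 measurement, this is 6 of 9 measured arms in each tumor type. For each arm that fell, every tumor library lay below every AG library. How many of all miRNAs or hairpins tested were separated in this way was not counted, here or below. Such separation describes the arms named and is not shown to be particular to them. Both comparisons use the same AG libraries. The median change over the members was -1.19 in TI and -1.25 in TIM on the log2(CPM + 1) scale, beside -0.01 and 0.18 over all miRNAs tested. Counts called by edgeR on the recovered reads were 7 in TI and 7 in TIM, and by DESeq2 7 and 8, with no share of all miRNAs counted for either tool.

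The largest fall on the log2 scale in TI was that of let-7e-3p, whose hairpin lies in a cluster with miR-99b and miR-125a. It was at 28.7, 29.1 and 27.6 CPM in the AG libraries, at 5.63 to 14.3 CPM in TI (median 6.60) and at 3.53 to 14.8 CPM in TIM (median 6.15). The groups did not overlap, and the tumor libraries were far more widely spread than the AG libraries. The log2 change was -1.82 in TI (SE 0.38, adjusted p = 0.00060 from limma) and -1.89 in TIM (SE 0.37, adjusted p = 0.00037). The highest TI library was TI 5, and without it the change in TI was -1.97 (adjusted p = 0.00018).

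In the cluster on chromosome 13, the 3p arms fell. The ratios between them tested below did not pass, so their falls are not shown to differ in size. The arm let-7f-1-3p was at 19.6, 14.8 and 16.6 CPM in AG, at 3.08 to 8.49 CPM in TI (median 5.19) and at 2.33 to 6.78 CPM in TIM (median 3.36). Its log2 change was -1.51 in TI (SE 0.36, adjusted p = 0.0019 from limma) and -1.95 in TIM (SE 0.35, adjusted p = 0.00016), the largest fall of a member in TIM. The abundant let-7d-3p was at 301, 246 and 277 CPM in AG, at 96.1 to 146 CPM in TI (median 141.7) and at 67.8 to 149 CPM in TIM (median 99.3). It fell by 1.09 on the log2 scale in TI (SE 0.27, adjusted p = 0.0028) and by 1.54 in TIM (SE 0.27, adjusted p = 0.00011). Its highest tumor library, TIM 4 with 149 CPM, still lay below the lowest AG library. The remaining arm of this cluster, let-7a-1-3p, read only as part of the pool, was at 184.6, 126.3 and 119.3 CPM in AG, at 17.7 to 75.5 CPM in TI (median 47.0) and at 33.2 to 75.8 CPM in TIM (median 56.8).

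For the pool itself, the sum of let-7a-1-3p and let-7c-2-3p was 286 ± 68.9 CPM (SD, n = 3) in AG, 93.5 ± 40.7 CPM (n = 7) in TI and 112 ± 27.8 CPM (n = 8) in TIM. Fitted as 1 row, it fell by 1.72 in TI (SE 0.39, adjusted p = 0.0013 from limma) and by 1.36 in TIM (SE 0.38, adjusted p = 0.0070). Taken as deposited, let-7a-1-3p changed by -1.69 and -1.36 and let-7c-2-3p by -1.72 and -1.33. Library TI 6 was the lowest for both arms, with 17.7 and 17.2 CPM.

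The partner of let-7c-2 on chromosome 15, let-7b-3p, was at 48.9, 34.2 and 40.4 CPM in AG, at 9.26 to 27.3 CPM in TI (median 16.8) and at 14.99 to 20.3 CPM in TIM (median 17.4). The TIM libraries were narrowly spread, and no tumor library reached an AG library. It fell by 1.29 in TI (SE 0.30, adjusted p = 0.0015 from limma) and by 1.17 in TIM (SE 0.29, adjusted p = 0.0029). The X-linked let-7f-2-3p was at 34.9, 29.8 and 34.1 CPM in AG, at 9.07 to 24.8 CPM in TI (median 15.5) and at 11.6 to 21.8 CPM in TIM (median 15.5). It fell by 1.06 in TI (SE 0.33, adjusted p = 0.011) and by 1.05 in TIM (SE 0.32, adjusted p = 0.012). Again the groups did not overlap.

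The other 3 members did not pass. The arm let-7c-1-3p was at 4.81, 4.01 and 5.41 CPM in AG, at 1.01 to 5.89 CPM in TI (median 2.64) and at 1.93 to 9.92 CPM in TIM (median 4.18), with log2 changes of -0.53 (SE 0.40, adjusted p = 0.27 from limma) and -0.12 (SE 0.40, adjusted p = 0.82). It had 19 to 253 reads in a library, and tumor libraries lay on both sides of AG. The arm let-7g-3p, with 10 to 90 reads, was at 2.03, 2.10 and 1.99 CPM in AG, at 0.694 to 3.18 CPM in TI (median 1.75) and at 1.14 to 3.09 CPM in TIM (median 2.06). Its log2 changes were -0.26 (SE 0.28, adjusted p = 0.46) and 0.00062 (SE 0.28, adjusted p = 0.998). The arm let-7i-3p was at 9.71, 13.2 and 13.6 CPM in AG, at 8.41 to 14.9 CPM in TI (median 9.85) and at 5.64 to 8.70 CPM in TIM (median 7.91). All 8 TIM libraries of let-7i-3p lay below all 3 AG libraries, the log2 change of -0.62 (SE 0.26) missed the threshold (adjusted p = 0.052), and the adjusted p ran from 0.018 to 0.87 over the alternatives with all libraries, 4 of 11 passing. In TI it was -0.22 (SE 0.26, adjusted p = 0.50).

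The falls depended in part on scaling. With library totals taken without miR-148a-3p, 4 of 10 members were called in TI and 3 of 10 in TIM. This scaling, here and below, also left out the TMM factor. The share of all miRNAs called lower was not counted for this or the other alternative fits, so these counts have no background beside them. With these totals the median change of the members was -0.68 in TI and -0.67 in TIM, while that of all miRNAs rose to 0.31 and 0.53. Relative to the median of all miRNAs, the members were at -1.18 in TI and -1.43 in TIM with the deposited scaling, and at -0.98 and -1.20 with totals taken without miR-148a-3p. With median ratio scaling their median change was -1.17 in TI and -1.29 in TIM, or -1.16 and -1.43 relative to all miRNAs. Members called under every alternative with all libraries were let-7a-1-3p, let-7c-2-3p, let-7e-3p and let-7f-1-3p in TI, and let-7d-3p, let-7e-3p and let-7f-1-3p in TIM. Without library AG 1, the AG library highest in 6 of the 10 members, 4 of 10 were called in TIM, as let-7a-1-3p (adjusted p = 0.056), let-7c-2-3p (adjusted p = 0.059) and let-7f-2-3p (adjusted p = 0.055) missed the threshold.

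The second comparison set each passenger beside its own guide, since both strands come from the same precursor. Of the 8 guides, 5 fell in TI and 5 in TIM, and 0 rose, where 29.3% and 25.9% of all 726 miRNAs were called lower. In both tumor types these were the guides of the a, d, e, f and g hairpins. In the plot of the changes of both arms, the 3p arm and the guide lay close for let-7a-1 (3p -1.69, guide -1.80 in TI), let-7f-1 (-1.51 and -1.45) and let-7d (-1.09 and -1.53). They lay apart for let-7b, where the 3p arm fell by 1.29 and the guide was at -0.11 (adjusted p = 0.75 from limma), and for let-7g, where the guide fell by 1.22 and the 3p arm was at -0.26. The reads of let-7a-1-3p are those of the pool. Under the name let-7c-2-3p they were at -1.72 in TI and lay apart from let-7c-5p at -0.64, so the closeness cannot be credited to let-7a-1. For let-7e both strands fell, with log2 changes of -1.82 for the 3p arm and -0.88 for the guide (adjusted p = 0.037). The guide call of let-7e-5p depended on the libraries: it was kept in 3 of the 10 fits that left out an AG or a TI library (adjusted p of up to 0.12) and, in TIM, where it was at -0.88 (adjusted p = 0.036), in 3 of 11 (up to 0.13). It was also lost in both tumor types with no filter on low values and with totals taken without miR-148a-3p, and in TIM with CPM without the TMM factor and with only TIM and AG in the model. The guide let-7c-5p was at -0.64 in TI (adjusted p = 0.053), and passed in 6 of 12 alternatives, edgeR (adjusted p = 0.026) and DESeq2 (adjusted p = 0.0097) on the recovered reads among them. For let-7i neither strand passed in either tumor type, and let-7i-5p was at 0.27 in TI and -0.06 in TIM.

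**Figure D3:**
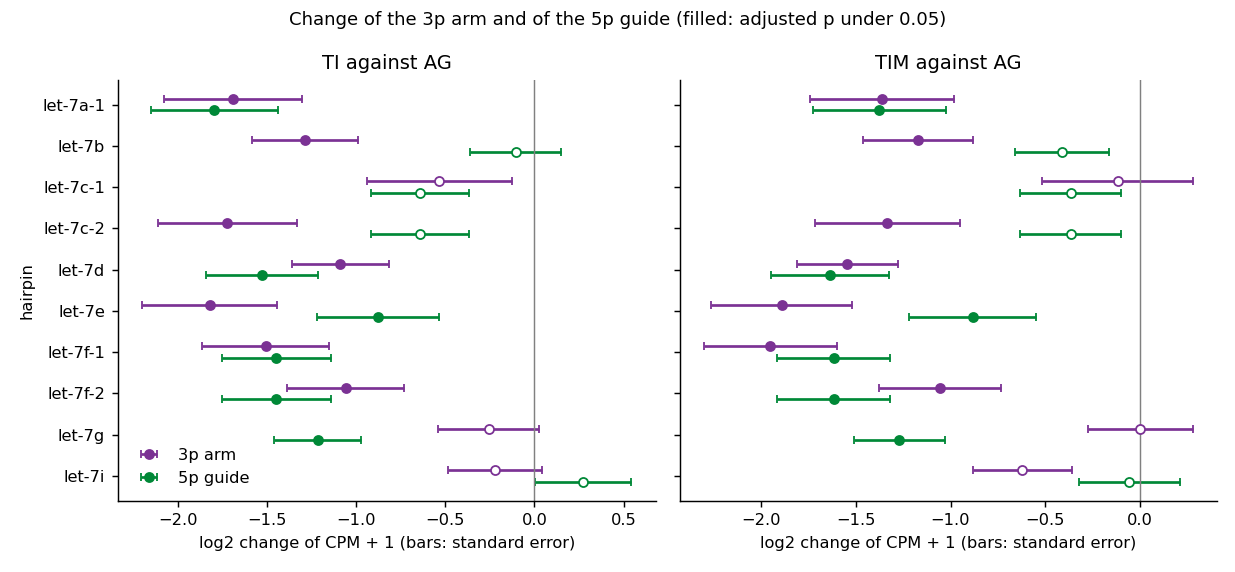
Log2 change of CPM + 1 in TI against AG (left) and TIM against AG (right) for the 3p arm (purple) and the 5p guide (green) of each of the 10 hairpins, with standard errors, filled where the adjusted p from limma was under 0.05. The strands lie farthest apart for let-7b, let-7c-2 and let-7e, with the 3p arm to the left of the guide, and for let-7g, with the 3p arm to the right.

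The share of 3p reads among the reads of both arms varied widely between hairpins. It is a share of counted reads, and whether it measures how the strands were kept was not tested. In AG, 18.3% ± 1.99 of the reads of let-7d (SD, n = 3) were 3p reads, 3.04% ± 0.257 of let-7e, 1.76% ± 0.0726 of let-7a-1, 1.26% ± 0.129 of let-7b and 1.12% ± 0.0366 of let-7c-2. The share was 0.0883% ± 0.0172 for let-7f-2, 0.0691% ± 0.0109 for let-7i, 0.0451% ± 0.00669 for let-7f-1, 0.0391% ± 0.0121 for let-7c-1 and 0.00974% ± 0.000661 for let-7g. At the median AG library this was 4.52 guide reads for each 3p read of let-7d and 9886 for each of let-7g. For let-7a-1, let-7c-1, let-7c-2, let-7f-1 and let-7f-2 the guide is shared with another hairpin, so the share is that of 1 arm against a common guide. The 3p reads of let-7a-1 and let-7c-2 are moreover those of the pool, divided between both names.

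The log2 ratio of 3p to 5p, computed within a library, was tested over 243 hairpins with both arms measured. In TI it fell for 3 of 10 let-7 hairpins (13.6% of all hairpins were called lower) and rose for 0 (18.9% of all were called higher). In TIM it fell for 2 (9.05% of all) and rose for 1 (15.2% of all). The let-7 hairpins moved both ways, with a median change of 0.02 in TI and -0.16 in TIM beside 0.11 and 0.09 over all hairpins. They are described one by one here because the counts are small.

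The share of let-7e 3p reads was 2.75%, 3.18% and 3.19% in the AG libraries, 0.956% to 2.23% in TI (median 1.48%) and 1.08% to 1.55% in TIM (median 1.41%). Every tumor library lay below every AG library. The log2 ratio fell by 0.95 in TI (SE 0.21, adjusted p = 0.0029 from limma) and by 1.01 in TIM (SE 0.20, adjusted p = 0.0014). These calls were made in all 15 alternatives with all libraries kept or TI 5 left out (8 for TI, 7 for TIM) and in all 21 fits that each left out 1 library. The 3p arm of let-7e thus fell by more than its guide in both tumor types.

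The share of let-7b 3p reads was 1.17%, 1.21% and 1.41% in AG, 0.229% to 0.928% in TI (median 0.626%) and 0.528% to 0.949% in TIM (median 0.754%). Here too the groups did not overlap. The log2 ratio fell by 1.18 in TI (SE 0.32, adjusted p = 0.0083 from limma). In TIM its change of -0.76 (SE 0.31) missed the threshold (adjusted p = 0.082) but passed with only TIM and AG in the model (adjusted p = 0.020). Without AG 3 the fall in TI missed it as well (-1.10, adjusted p = 0.051). The lowest TI library was TI 6, in which let-7b-5p was at 4036 CPM and let-7b-3p at 9.26 CPM, the highest level of the guide and the lowest of the 3p arm in TI.

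For let-7c-2 the ratio to let-7c-5p fell by 1.08 in TI (SE 0.33, adjusted p = 0.019 from limma) and by 0.97 in TIM (SE 0.33, adjusted p = 0.036). This call depended on how the pooled reads were assigned. The same reads under the name let-7a-1-3p, set against let-7a-5p, gave a change of 0.11 in TI (SE 0.30, adjusted p = 0.84) and 0.01 in TIM (SE 0.30, adjusted p = 0.98). Both arms summed and set against the sum of let-7a-5p and let-7c-5p gave a change of -0.74 in TI (SE 0.32, adjusted p = 0.079) and -0.68 in TIM (SE 0.31, adjusted p = 0.13), and neither passed. The call was also lost without any of the 3 AG libraries, with adjusted p of 0.063 to 0.070 in TI and 0.11 to 0.12 in TIM, and in TIM without TIM 1, TIM 2, TIM 4 or TIM 5 (adjusted p = 0.052 to 0.058).

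In let-7g the share of 3p reads was 0.0101%, 0.0101% and 0.008975% in AG, 0.00638% to 0.0578% in TI (median 0.0179%) and 0.0117% to 0.0388% in TIM (median 0.0257%). All 8 TIM libraries and 5 of 7 TI libraries had a higher share than any AG library, and on the log2 ratio with a pseudocount 6 of 7 TI libraries did. The log2 ratio rose by 1.27 in TIM (SE 0.39, adjusted p = 0.022 from limma) and changed by 0.96 in TI (SE 0.39, adjusted p = 0.071). The guide fell, and the group means of the 3p arm were 1.65 to 2.12 CPM. At such levels the pseudocount matters, and with 0.1 in place of 1 the change in TIM was 1.25 (adjusted p = 0.094), and without AG 1, AG 2 or AG 3 the adjusted p was 0.096, 0.081 and 0.073. In TI the change passed without TI 5 (1.13, adjusted p = 0.026) and without TI 7 (1.07, adjusted p = 0.044), with a pseudocount of 5 (1.13, adjusted p = 0.0043) and with CPM without the TMM factor (1.06, adjusted p = 0.037).

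The ratios of the other hairpins did not pass in either tumor type. Their log2 changes were 0.44 in TI and 0.09 in TIM for let-7d, -0.06 and -0.33 for let-7f-1, and 0.39 and 0.56 for let-7f-2. Those of let-7i were -0.50 and -0.56 and those of let-7c-1 were 0.11 and 0.25. Adjusted p was between 0.097 and 0.89 for all of them. Of these let-7f-2 passed in both tumor types with a pseudocount of 5 (0.56, adjusted p = 0.047 in TI, and 0.72, adjusted p = 0.017 in TIM). With that pseudocount 5 of 10 ratios were called in TI.

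**Figure D4:**
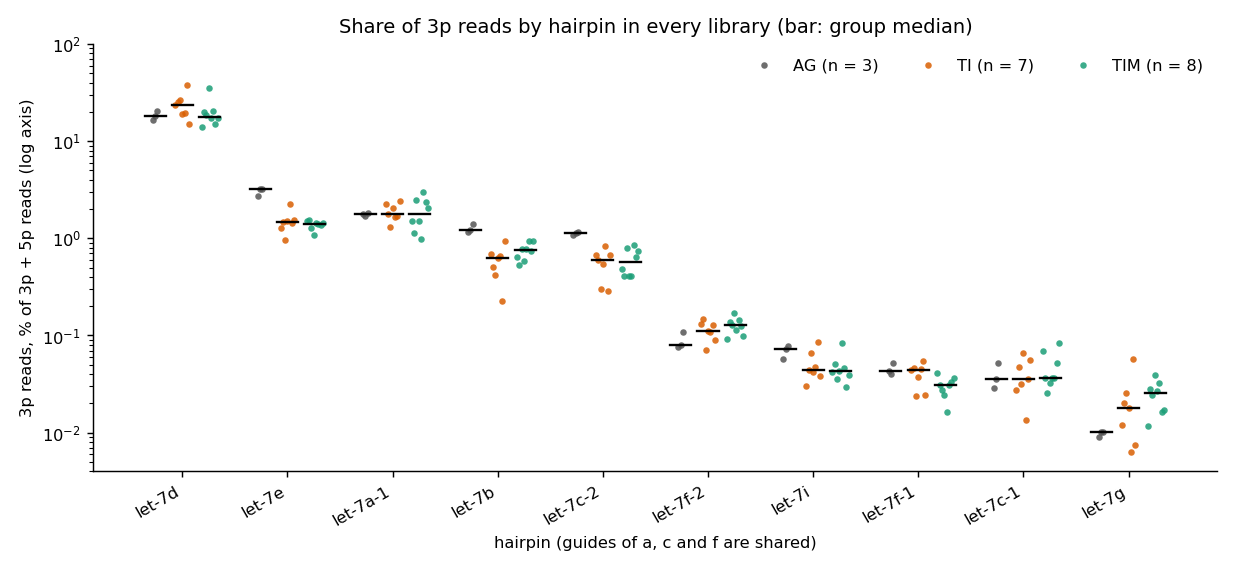
Reads of the 3p arm as a percentage of 3p and 5p reads (log axis) for each hairpin in every library, grey for AG (n = 3), orange for TI (n = 7) and green for TIM (n = 8), with a bar at the group median, ordered by the AG mean. The shares run from 18.3% for let-7d to 0.00974% for let-7g in AG, the tumor libraries of let-7e, let-7b and let-7c-2 lie below AG, and the TIM libraries of let-7g lie above it.

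The third comparison set the 3p arms of hairpins that share a guide beside each other. The share of 3p reads differed widely between hairpins, so these values do not give the part of a guide made by each hairpin. The guide let-7f-5p is made from let-7f-1 on chromosome 13 and from let-7f-2 on chromosome X. Of the reads of both 3p arms, let-7f-1-3p took 35.9%, 33.2% and 32.8% in AG, 21.5% to 29.7% in TI (median 25.3%) and 12.5% to 30.5% in TIM (median 17.95%). Every tumor library was below every AG library. The log2 ratio of let-7f-1-3p to let-7f-2-3p changed by -0.45 in TI (exact permutation test, two-sided, p = 0.017) and by -0.90 in TIM (exact permutation test, p = 0.012), which are the lowest values that these group sizes permit. With 15 such ratios tested (5 pairs in 3 comparisons), the adjusted p was 0.091 for both, and neither passed. TIM against TI gave -0.45 (exact permutation p = 0.035, adjusted p = 0.10), with overlapping libraries. Against AG, a ratio at its lowest possible p could not pass after this adjustment unless several others also had low p-values. These tests could therefore hardly call a change against AG, and a ratio that did not pass there is not shown to be unchanged.

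For let-7c-5p, made from let-7c-1 on chromosome 16 and let-7c-2 on chromosome 15, let-7c-1-3p took 2.59%, 3.04% and 4.32% of the reads of both 3p arms in AG. It took 1.57% to 11.2% in TI (median 7.62%) and 3.12% to 12.4% in TIM (median 7.72%), and these ranges overlapped with AG. The log2 ratio changed by 1.19 in TI (exact permutation p = 0.083, adjusted p = 0.18) and by 1.21 in TIM (exact permutation p = 0.024, adjusted p = 0.091). The reads named let-7c-2-3p include those of let-7a-1-3p, so this share does not give the make-up of let-7c-5p.

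Pairs of neighbouring hairpins gave no ratio past the threshold either, which comparisons with AG could hardly pass. Within the chromosome 13 cluster, the ratio of let-7a-1-3p to let-7f-1-3p was at -0.18 in TI and 0.59 in TIM, and TIM was above TI by 0.77 (exact permutation p = 0.021, adjusted p = 0.091). Without TI 7 that last difference was 0.99 with an adjusted p of 0.00999. The log2 ratio of let-7f-1-3p to let-7d-3p changed by -0.42 in TI and by -0.41 in TIM. That of let-7c-2-3p to let-7b-3p on chromosome 15 changed by -0.44 and by -0.16. Adjusted p was 0.18 to 0.38 for these changes (exact permutation test).

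**Figure D5:**
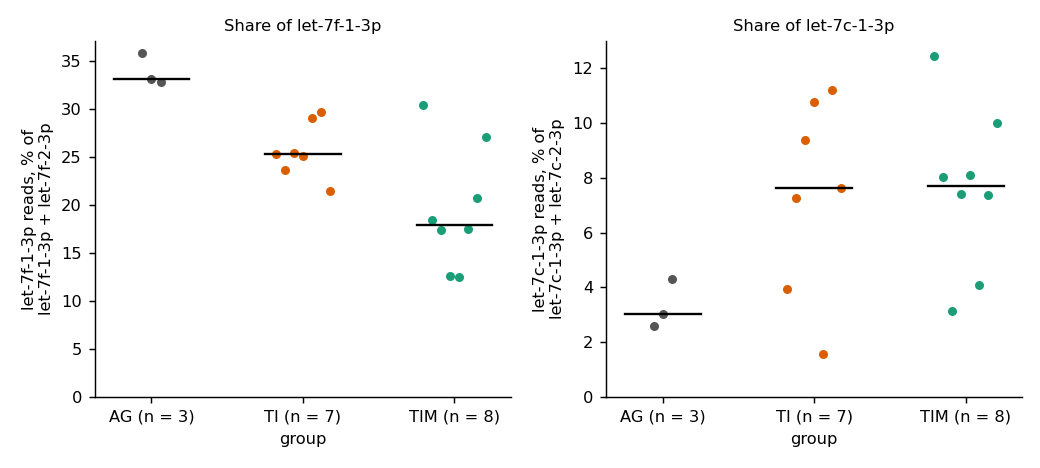
Reads of let-7f-1-3p as a percentage of let-7f-1-3p and let-7f-2-3p (left) and reads of let-7c-1-3p as a percentage of let-7c-1-3p and let-7c-2-3p (right) in every library, by group, with a bar at the median. On the left the AG libraries lie at 32.8% to 35.9%, above all tumor libraries, and on the right the groups overlap.

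Between the tumor types no member passed. By limma 0 of 10 members differed between TIM and TI, where 5.23% of all 726 miRNAs were called in either direction, and 0 of 10 arm ratios did, where 3.70% of 243 hairpins were called. At an unadjusted p under 0.05 there was 1 member, let-7d-3p (-0.45, SE 0.20, adjusted p = 0.19), and 0 ratios, and edgeR and DESeq2 on the recovered reads called 0 members. The other members with a negative change were let-7f-1-3p (-0.44), let-7i-3p (-0.40) and let-7e-3p (-0.07). Positive values were found for let-7c-1-3p (0.41), let-7c-2-3p (0.39), let-7a-1-3p (0.33), let-7g-3p (0.26), let-7b-3p (0.12) and let-7f-2-3p (0.0040). Of let-7i-3p, 6 of 8 TIM libraries were below the lowest TI library, and 4 of 8 were so for let-7f-1-3p. The arm ratios differed by between -0.35 (let-7d) and 0.42 (let-7b).

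Over the 15 tumors the strands of some hairpins varied together and those of others did not. The SD of the log2 ratio over the tumors was 0.25 for let-7e, below the SD of either strand (0.51 for the 3p arm, 0.49 for the guide). For let-7f-2 it was 0.31, against 0.41 and 0.42. For let-7b it was 0.51, above 0.32 and 0.33, and for let-7d and let-7g 0.55 and 0.62. Both strands of let-7e thus went up and down together from tumor to tumor, around a ratio lower than in AG.

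Patterns outside the family were compared by the root mean square difference of log2(CPM + 1), each miRNA centred on its mean over the 18 libraries, among 704 miRNAs. The nearest is the lowest of 704 distances and a guide gives a single distance, so a nearest miRNA below the guide is no result about the strands. The nearest to let-7e-3p was miR-125a-5p (0.29), which is known to be made from the same cluster, and its guide let-7e-5p was at 0.43. For let-7b-3p it was miR-99b-5p (0.21, guide 0.58), for let-7f-2-3p miR-125a-3p (0.31, guide 0.34) and for the pool of let-7a-1-3p and let-7c-2-3p miR-151-3p (0.31 for each name). The nearest to let-7d-3p was miR-126b-3p (0.37), to let-7i-3p miR-148b-5p (0.22) and to let-7f-1-3p miR-30a-5p (0.37), the last being farther than its guide (0.34). For let-7c-1-3p and let-7g-3p they were miR-7015-3p (0.40) and miR-6940-3p (0.36). Each distance is to be read beside the spread of the 3p arm itself on this scale, which was 0.32 for let-7i-3p, 0.37 for let-7g-3p and 0.53 to 0.83 for the other 8.

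Among miRNAs known to share clusters with let-7 hairpins, the miR-99, miR-100 and miR-125 families, 10 of 11 listed arms were tested. In TI 8 of 10 fell and in TIM 7 of 10, with 0 rising, beside 29.3% and 25.9% of all miRNAs called lower. Beside let-7e, miR-125a-5p fell by 1.63 in TI (SE 0.38, adjusted p = 0.0018 from limma) and by 2.03 in TIM (SE 0.38, adjusted p = 0.00021), and miR-99b-5p fell by 0.95 and by 0.91. The other strand of that last hairpin, miR-99b-3p, was at -0.08 (adjusted p = 0.81) and -0.11 (adjusted p = 0.74). Not every let-7 arm fell where these families did. The miR-99a-5p arm fell by 2.69 in TI and by 2.70 in TIM (adjusted p = 0.011 from limma in both), and miR-99a-3p by 0.87 and 0.94. In contrast, let-7c-1-3p was at -0.53 and -0.12 and did not pass.

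Of the 3p arms of the family outside the members, let-7a-2-3p, at 1.20, 0.699 and 0.694 CPM in AG, at most 0.182 CPM in TI and at most 1.02 CPM in TIM, was too rare to be tested, with 0 to 26 reads in a library. Its TI libraries, with 0 to 2 reads each, were at or below the level that 3 reads correspond to. The arm miR-98-3p, which shares the seed UAUACAA with 4 members, was at 2.43 ± 0.627 CPM (SD, n = 3) in AG, 4.52 ± 1.56 CPM (n = 7) in TI and 2.96 ± 2.12 CPM (n = 8) in TIM, with a log2 change of 0.65 in TI (SE 0.39, adjusted p = 0.17 from limma). Its guide miR-98-5p, and let-7j and let-7k, did not pass in either tumor type (adjusted p = 0.063 to 0.99).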

How the data were processed

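Per the labels, small RNA was extracted with TRIzol from about 30 mg of tissue, whereas the methods of the paper name the Qiagen AllPrep kit for mouse tissue. The authors trimmed reads with cutadapt 2.8, aligned them with Bowtie2 2.3.5.1 to mm10, counted them per mature miRNA with featureCounts 2.0.0 and normalized them with edgeR 3.40 (versions from the paper and the submitters' processing notes). The deposited signal is CPM on the library total multiplied by its TMM factor. The 9 columns of the authors' comparisons (log2 fold change, p-value and FDR) were not used. Reads were recovered from the deposited values, of which 100% were whole within 0.01, and served for the read shares and as an alternative.

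Levels were tested with limma 3.58.1 (lmFit, eBayes with trend, R 4.3.3) on log2(CPM + 1) for miRNAs with at least 1 CPM in 3 libraries, in 1 model over 18 libraries, with Benjamini-Hochberg adjustment and a threshold of 0.05. Arm ratios were tested likewise on log2((3p + 1)/(5p + 1)). Ratios between 3p arms used exact permutation tests (scipy 1.17.1), whose smaller tail was doubled. A fold change on this scale understates that of low members. All 10 members and 8 guides are named. Members, lists and tests were chosen with earlier results of these data known. Alternatives were other pseudocounts, scalings, filters and samples, and edgeR 4.0.16 and DESeq2 1.42.0 on the reads. Tested on simulated data for TI against AG, the fit of 726 miRNAs recovered 121 of 200 changed by 2 on the log2 scale. It made 5 false calls among the miRNAs left unchanged. The fit of 243 ratios recovered 31 of 60, with 1 false call among the ratios left unchanged. Libraries are counted as samples, and 0 pairs were identical. Since TIM tumors may share a mouse, p-values measure the spread between these libraries.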

Additional observations from a re-analysis of the deposited data

Results flagged for a closer look

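Within TI or TIM, 5 values lay far from the others by Dixon's ratio, the gap to the nearest library divided by the group's range, of 56 sets of libraries examined, where chance gives about 2.8. In TI, let-7e-3p was highest in TI 5 (log2(CPM + 1) 3.94, ratio 0.772) and let-7f-5p lowest in TI 6 (12.85, ratio 0.583). In TIM, library TIM 4 held the highest log2 ratio of 3p to 5p for let-7d (-0.88, ratio 0.606) and the lowest for let-7e (-6.25, ratio 0.553), and TIM 5 the lowest for let-7f-1 (-12.1, ratio 0.600). No cause was tested.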

How the results depend on the processing

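No paired analysis was made, as the groups are mice of different genotypes. The deposited columns name a group and not the numbered sample. Each library is numbered in column order. Every comparison with AG rested on 3 libraries, and let-7c-1-3p and let-7g-3p were read from 10 to 253 reads in a library, which limits the precision of their changes. Counts of members called moved to 4 in TI with totals taken without miR-148a-3p, which also left out the TMM factor. In TIM they moved to 3 with those totals and to 4 with CPM without the TMM factor. They ran from 4 to 7 in TIM when 1 library was left out. The share of all miRNAs called was not counted for these alternatives. Between TIM and TI, 2 members (let-7c-1-3p and let-7c-2-3p) passed with CPM without the TMM factor. That scaling put the median of all miRNAs at 0.49 between TIM and TI, and the members at 0.09 above it. Arm ratios called moved to 5 in TI with a pseudocount of 5 and to 1 in TIM with 0.1, and with 1 library left out the range was 1 to 4 in TI and 1 to 3 in TIM (1 in TI without AG 3, and 1 in TIM without any of the AG libraries). Ratios between 3p arms ran from 0 to 1 between TIM and TI, with 1 without TI 7. The cause of these moves was not tested.

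The sign changed for values that had not passed. Each value below, also of a ratio, is a log2 change against AG or, where named, between TIM and TI. With totals taken without miR-148a-3p, let-7g-3p was at 0.11, let-7i-3p at 0.27 and let-7b-5p at 0.42 in TI, and let-7c-1-3p at 0.37, let-7b-5p at 0.18, let-7c-5p at 0.23 and let-7i-5p at 0.54 in TIM. With CPM without the TMM factor, let-7c-1-3p was at 0.15 and let-7i-5p at 0.29 in TIM, and between TIM and TI let-7d-3p was at 0.10, let-7e-3p at 0.41, let-7f-1-3p at 0.0067 and let-7i-3p at 0.11. In TIM let-7g-3p was at -0.024 with a pseudocount of 0.1 and at -0.027 with median ratio scaling. Between TIM and TI let-7f-2-3p was at -0.0082 with a pseudocount of 5, -0.054 with median ratio scaling, -0.096 in edgeR and -0.13 in DESeq2. Without TI 5, between TIM and TI, let-7e-3p was at 0.079, the let-7e ratio at 0.029, the let-7c-1 ratio at -0.011 and the ratio of let-7c-1-3p to let-7c-2-3p at -0.24.

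The change of the let-7a-1 arm ratio turned to -0.74 in TI, -0.68 in TIM and 0.063 between them with the identical arms summed, and to -0.00029 in TIM with a pseudocount of 0.1. The let-7c-1 ratio was at -0.062 in TI with 0.1, and between TIM and TI at -0.054 with 5 and -0.0064 without the TMM factor. With a pseudocount of 5, the let-7f-1 ratio was at 0.38 in TI and 0.29 in TIM, the let-7i ratio at 0.048 between TIM and TI, the ratio of let-7f-1-3p to let-7d-3p at 0.18 in TIM and that of let-7c-1-3p to let-7c-2-3p at -0.13 between TIM and TI, the last being at -0.11 without the TMM factor. Between TIM and TI, let-7f-1-3p to let-7d-3p was at -0.079 with 0.1 and -0.094 without the TMM factor.

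When 1 library was left out, signs changed within these ranges: in TI let-7b-5p -0.20 to 0.077 and the ratios of let-7c-1 (-0.087 to 0.33) and let-7f-1 (-0.15 to 0.057); in TIM let-7c-1-3p -0.27 to 0.0019, let-7g-3p -0.060 to 0.073, let-7i-5p -0.12 to 0.049 and the ratios of let-7a-1 (-0.095 to 0.14) and let-7d (-0.080 to 0.19). Between TIM and TI they were let-7b-3p -0.0049 to 0.24, let-7e-3p -0.21 to 0.079, let-7f-2-3p -0.11 to 0.11, the arm ratios of let-7a-1 (-0.20 to 0.029), let-7c-1 (-0.011 to 0.25), let-7c-2 (-0.025 to 0.23), let-7e (-0.16 to 0.029) and let-7i (-0.19 to 0.065), let-7c-1-3p to let-7c-2-3p (-0.24 to 0.18) and let-7f-1-3p to let-7d-3p (-0.10 to 0.17). No value that had passed changed sign under any alternative run.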
